A study of Mus musculus with 12 samples.

Results

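The ER stress and amino acid response was followed in MLO-Y4 cells through 10 genes, Atf4, Atf3, Ddit3, Xbp1, Hspa5, Chac1, Trib3, Asns, Ero1a and Ddit4, out of 19938 genes measured. They were taken by name, and each was read from 1 transcript cluster of the Affymetrix Mouse Gene 1.0 ST array, so none of the 10 was missing and no filter on low values removed any. MLO-Y4 is an established mouse line with the dendritic shape of osteocytes, the cells that sense load inside bone, and the labels give long bone as its tissue. All cells were cultured for 48 h. The μ-g group lay in the bore of a superconducting magnet whose strong field (LG-HMF) has a steep gradient, at the position of 12 T where the magnetic force offset gravity. The 1-g group lay at the centre of the same bore at 16 T with no such force, and the 2-g group at 12 T where the force added to gravity. The control group was cultured outside the magnet at normal gravity in the geomagnetic field. Each group had 3 arrays, and the labels name the samples as biological replicates without saying whether they were separate cultures, so every p-value reflects no more than the spread among these arrays. Set 1 compared μ-g with control, set 2 compared 2-g with control and set 3 compared 1-g with control, while set 4 compared μ-g with 2-g. The pairs μ-g against 1-g and 2-g against 1-g, which are not among the sets of the study, were tested as well. In all of these but set 3 and set 4 both the field and the apparent gravity differed, and there field and force cannot be told apart. In set 3 the apparent gravity was the same in both groups, and in set 4 the field was. The plates of the 3 magnet groups stood on 1 holder inside the bore, to which warmth and gas were supplied, while control plates were incubated outside, so the place of culture and the group cannot be told apart either.

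Cells that lack amino acids or accumulate unfolded protein in the endoplasmic reticulum (ER) slow down translation by phosphorylating eIF2alpha, and the transcription factor ATF4 is then made preferentially from its messenger RNA. ATF4 turns on genes of amino acid synthesis and uptake together with the factors ATF3 and CHOP (the product of Ddit3). In parallel, the sensors IRE1 and ATF6 raise ER chaperones, IRE1 by splicing the Xbp1 messenger. In bone, ER stress signalling is best known from osteoblasts, which secrete large amounts of collagen. Ero1a, which encodes the oxidase that recharges protein disulfide isomerase in the ER, and Ddit4, which encodes the mTORC1 inhibitor REDD1, are known to respond to low oxygen as well. Much of this control acts on translation, splicing and phosphorylation, which a level of messenger RNA on these arrays does not read.

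The promoters of 6 of the genes are shown because Ero1a and Ddit4 changed most clearly, Chac1, Asns and Atf3 carry the same ATF4-type letters, and Hspa5 holds the classical ER stress element. The sequences are the 250 bases before the RefSeq start of each gene in the build GRCm38.p6, read 5′ to 3′ on the strand of the gene, and all 10 genes had an entry. Ero1a lies on the minus strand (chr14:45318573-45318822), Ddit4 on the minus strand (chr10:59951771-59952020), Chac1 on the plus strand (chr2:119350992-119351241), Asns on the minus strand (chr6:7693210-7693459), Atf3 on the minus strand (chr1:191183334-191183583) and Hspa5 on the plus strand (chr2:34771840-34772089). Capitals mark ACGTG or GCGTG, the cores bound by hypoxia-inducible factors, in Ero1a and Ddit4. In Chac1, Asns and Atf3 they mark TGATGNAA, the core bound by C/EBP and ATF dimers, and in Hspa5 CCAAT followed after 9 bases by CCACG, the element bound by NF-Y and ATF6. Matches were sought on both strands, so a match on the other strand appears as its reverse complement.
Ero1a promoter: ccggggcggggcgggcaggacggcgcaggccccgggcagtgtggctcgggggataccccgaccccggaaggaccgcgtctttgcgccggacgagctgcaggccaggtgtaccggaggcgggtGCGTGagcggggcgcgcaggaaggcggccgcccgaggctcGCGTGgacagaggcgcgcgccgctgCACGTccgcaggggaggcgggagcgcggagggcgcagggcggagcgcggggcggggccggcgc
Ddit4 promoter: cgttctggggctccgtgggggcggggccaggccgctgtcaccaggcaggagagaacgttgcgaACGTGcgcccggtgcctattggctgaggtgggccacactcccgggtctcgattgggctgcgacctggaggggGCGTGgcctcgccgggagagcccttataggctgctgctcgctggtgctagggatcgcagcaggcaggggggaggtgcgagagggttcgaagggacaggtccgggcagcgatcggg
Chac1 promoter: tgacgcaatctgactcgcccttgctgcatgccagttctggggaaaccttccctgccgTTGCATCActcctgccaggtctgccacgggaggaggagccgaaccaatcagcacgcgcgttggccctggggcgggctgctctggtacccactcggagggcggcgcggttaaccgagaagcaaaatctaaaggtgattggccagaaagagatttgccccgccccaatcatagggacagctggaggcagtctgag
Asns promoter: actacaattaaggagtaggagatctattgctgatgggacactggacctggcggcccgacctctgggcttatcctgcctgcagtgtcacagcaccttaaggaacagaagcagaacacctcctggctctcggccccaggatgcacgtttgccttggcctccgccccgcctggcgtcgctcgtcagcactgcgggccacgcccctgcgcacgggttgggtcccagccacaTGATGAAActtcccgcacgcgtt
Atf3 promoter: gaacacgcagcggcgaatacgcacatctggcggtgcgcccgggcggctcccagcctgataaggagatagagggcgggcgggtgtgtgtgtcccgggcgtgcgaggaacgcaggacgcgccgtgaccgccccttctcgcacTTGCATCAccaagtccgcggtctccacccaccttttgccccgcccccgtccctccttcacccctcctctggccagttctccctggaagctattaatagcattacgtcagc
Hspa5 promoter: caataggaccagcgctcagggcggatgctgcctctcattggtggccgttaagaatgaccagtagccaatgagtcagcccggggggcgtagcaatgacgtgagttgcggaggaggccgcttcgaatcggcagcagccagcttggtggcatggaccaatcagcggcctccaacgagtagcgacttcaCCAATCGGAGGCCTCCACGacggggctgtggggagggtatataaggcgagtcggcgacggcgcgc

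The C/EBP-ATF core stood in 3 of the 10 promoters, with its first printed base 193 bases before the start of Chac1, 110 before that of Atf3 and 23 before that of Asns, and in 3.45% of 32851 mouse promoters of the same length. The ER stress element stood only in Hspa5 among the 10, 65 bases before the start, and in 0.113% of all promoters. ACGTG was found in Ero1a, Ddit4, Hspa5 and Asns (16.6% of all promoters), and in Hspa5 it does not overlap the ER stress element. GCGTG was found in all of the 10 but Xbp1 and Hspa5 (28.2% of all promoters), and 38.6% of all promoters held at least 1 of these cores. A match is a description of letters, not a site or a cause.

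All 10 genes lay above the median gene. Their mean levels over the 12 arrays, on the log2 scale of the deposited values, ran from 8.78 for Atf3, at the percentile 63.7 of all genes, to 13.21 for Asns, at the percentile 99.6, while the median gene stood at 7.50. Levels of different genes rest on different probes and are not compared with each other. Array medians ran from 7.04 to 7.12. Of 9 measured osteocyte markers, Gja1, Pdpn, Cd44 and Capg stood at or above the percentile 88.4 of all genes, Sost and Fgf23 near the median, and Dmp1, Phex and Mepe at the percentiles 16.7, 12.4 and 6.23, ranks that also depend on the probes of each gene. The limma fit was run without and with a block, the replicate number of the labels as a term of the fit. Without the block limma called 0 of these 9 in each comparison, and at most 1 had an unadjusted P under 0.05 (2.31% to 17.2% of all genes). With the block 1 fell in set 4 and 1 rose in 2-g against 1-g (3.9% and 3.21% of all genes), and none passed elsewhere. Gja1 had the largest difference of the list in both, with means of 12.04 in μ-g, 12.05 in 1-g and 12.28 in 2-g. Of 10 macrophage, 8 osteoclast, 6 adipocyte and 7 endothelial markers, Cd68, Ctsk, Mmp9 and Pparg passed without the block in set 4, all higher in μ-g (log2 fold change 0.55, 0.58, 0.52 and 0.48, where 1.38% of all genes rose). In the 4 lists, 7, 8, 5 and 6 markers had a higher mean in μ-g than in 2-g, and 3, 0, 1 and 1 a lower one. The lower adipocyte marker, Fabp4 (10.54 in μ-g, 10.90 in 2-g), passed only with the block (3.9% of all genes lower). The macrophage marker Csf1r was lower in μ-g too (7.14 against 7.29) and did not pass. Cd68, Ctsk and Pparg also fell in 2-g against 1-g (2.26% of all genes called), and Ctsk in set 2 (−0.50, adjusted p = 0.0179, where 1.43% of all genes fell). The call of Mmp9 was lost in 12 of 19 alternatives, 10 of which left out 1 array (all but 1-g replicate 1 and 2-g replicate 3), with adjusted p up to 0.139. That of Cd68 was lost in 5 in set 4, among them the loss of μ-g replicate 1 or 3 or 2-g replicate 2 or 3. In 2-g against 1-g it was lost in 3, without 1-g replicate 1, 2-g replicate 2 or 2-g replicate 3. That of Ctsk in set 2 was lost in 5, among them the loss of 2-g replicate 2 or 3 or control replicate 1 or 3. The other calls of Ctsk and Pparg held in all 19. The mean level of the 8 osteoclast markers ran from 7.64 to 7.73 on the μ-g arrays, from 7.62 to 7.65 on 1-g, from 7.44 to 7.54 on 2-g and from 7.58 to 7.66 on control arrays. For the 10 macrophage markers these ranges were 6.85 to 6.96, 6.80 to 6.97, 6.77 to 6.84 and 6.85 to 6.93 in the same order of groups. In set 4 the medians of the macrophage, osteoclast, adipocyte and endothelial lists were 0.03, 0.10, 0.11 and 0.09, where that of all genes was 0.03. Cd68, Ctsk, Mmp9 and Pparg stood at the percentiles 75.5, 98.4, 63.3 and 79.5 of all genes. Other markers stood low, such as Ptprc, Adgre1, Calcr and Dcstamp at 17.8, 13.2, 17.2 and 15.6. The part of shifts in these markers in the results was not tested, and in bulk RNA fewer cells of a type and less RNA per cell cannot be told apart.

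Ero1a was the gene of the 10 with the widest range. It measured 12.33, 11.92 and 12.09 (log2) on the μ-g arrays, 12.19, 11.999 and 11.91 on 1-g, 13.23, 12.97 and 12.94 on 2-g and 12.87, 12.78 and 12.28 on control arrays. All 2-g arrays lay above all others, the μ-g and 1-g arrays overlapped, and control replicate 3 lay far below the other control arrays and below the highest μ-g array. In set 4 Ero1a fell by 0.94 (log2, SE 0.15), with an adjusted p of 0.00646 from limma over all genes, to 0.523 of its 2-g level. In 2-g against 1-g it rose by 1.01 (SE 0.15, adjusted p = 0.00469), or 2.02-fold. Both calls held without any single array.

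The control cultures stood between the extremes for Ero1a. The order of the group means was 2-g (13.05 ± 0.16, SD, n = 3), control (12.64 ± 0.32), μ-g (12.11 ± 0.20) and 1-g (12.03 ± 0.14). No neighbours in this order passed the test: 2-g minus control was 0.41 (SE 0.15, adjusted p = 0.180 in set 2), μ-g minus control −0.53 (SE 0.15, adjusted p = 0.128 in set 1) and μ-g minus 1-g 0.08 (SE 0.15, adjusted p = 1.00). With the replicate number of the labels fitted as a block, Ero1a rose in set 2 (adjusted p = 0.0250) and fell in set 3 (log2 fold change −0.61, adjusted p = 0.0145, against 0.129 without the block). It also fell with the block in set 1 (adjusted p = 0.0166), where the numbers were not taken to pair the samples by the rule used. Without control replicate 3 and with no block, it fell in set 1 (−0.71, adjusted p = 0.0468) and set 3 (−0.79, adjusted p = 0.0295), and its difference in set 2 was 0.22 (adjusted p = 0.503). With the block, the call in set 2 was lost without any 1 of the 2-g arrays, control replicate 1 or control replicate 3, and that in set 3 without any 1 of the 1-g arrays, control replicate 1 or control replicate 2. The blocked call in set 1 was lost without μ-g replicate 1, control replicate 1 or control replicate 2.

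Ddit4 showed the same order of groups, 2-g, control, μ-g and 1-g. Its levels (log2) were 10.76, 10.68 and 10.58 in μ-g, 10.72, 10.61 and 10.68 in 1-g, 11.18, 11.06 and 11.004 in 2-g and 10.73, 10.86 and 11.06 in control. The 2-g arrays lay above all μ-g and 1-g arrays, whereas the control arrays overlapped those of μ-g and 2-g. Ddit4 fell in set 4 (log2 fold change −0.41, SE 0.08, adjusted p = 0.0209) and rose in 2-g against 1-g by 0.41 (SE 0.08, adjusted p = 0.0224). The first call was lost without μ-g replicate 3, 2-g replicate 1 or 2-g replicate 2 (adjusted p = 0.0878, 0.0647 and 0.0648) and the second without any 1 of the 6 arrays compared (highest adjusted p = 0.0841, without 1-g replicate 2). Against control, Ddit4 differed by −0.21 in μ-g, −0.21 in 1-g and 0.20 in 2-g (adjusted p = 0.267, 0.354 and 0.225). Without the block these 2 genes were the only ones of the 10 called by limma's F test over the 4 groups (Ero1a adjusted p = 0.00814, Ddit4 adjusted p = 0.0334), a test that called 3.15% of all genes. In 8 of 12 such tests that each left out 1 array only 1 of the 10 was called. With the block the F test called 5, adding Chac1, Atf3 and Asns (adjusted p = 0.00394, 0.0382 and 0.0404, 11.7% of all genes).

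**Figure D1:**
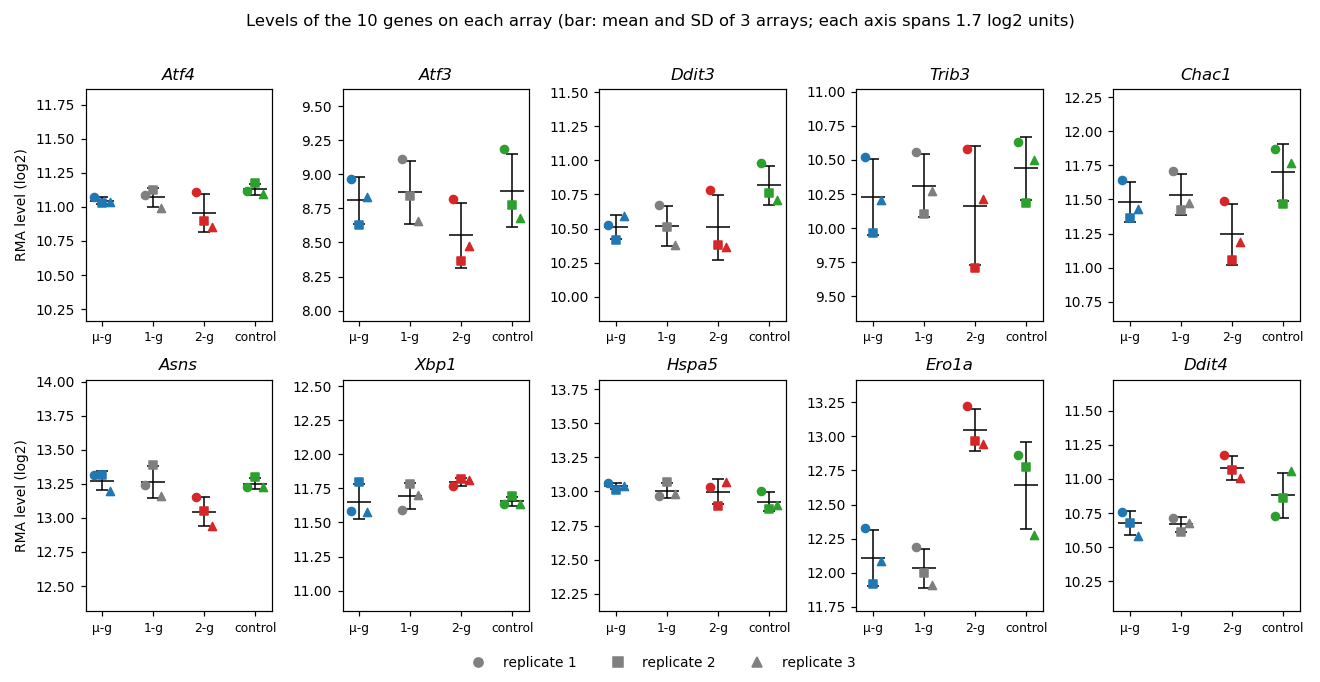
RMA level (log2) of the 10 genes on each array, with groups on the x axis (μ-g, 1-g, 2-g and control), 1 symbol per replicate number and bars for the mean and SD of 3 arrays. Ero1a and Ddit4 stand highest in 2-g, Chac1, Asns and Atf3 have their lowest means there, and replicate 1 stands high in every group for Trib3, Atf3 and Chac1.

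None of the 3 transcription factors Atf4, Atf3 and Ddit3 passed with all 12 arrays and no block, while Atf4 and Ddit3 passed in set 2 once 2-g replicate 1 was left out. Atf4 itself measured 11.08, 11.03 and 11.03 in μ-g, 11.09, 11.13 and 10.99 in 1-g, 11.11, 10.89 and 10.85 in 2-g and 11.12, 11.18 and 11.10 in control. The μ-g arrays all lay below the control arrays, 2-g replicates 2 and 3 lay below all other arrays, and 2-g replicate 1 lay among the control arrays. Its largest difference, −0.18 in set 2 (95% interval −0.32 to −0.03), had an adjusted p of 0.181, and 0.0848 with the block. Without 2-g replicate 1 it was −0.26 (adjusted p = 0.0392). Atf3, a stress-induced repressor of the same bZIP family, measured 8.97, 8.63 and 8.83 in μ-g, 9.11, 8.84 and 8.65 in 1-g, 8.82, 8.36 and 8.47 in 2-g and 9.19, 8.77 and 8.68 in control. Its groups overlapped and replicate 1 was the highest array of every group, but within each replicate number the 2-g array was the lowest of the 4. The difference of −0.33 in set 2 did not pass (SE 0.16, adjusted p = 0.328), and with the block Atf3 fell in set 2 (SE 0.07, adjusted p = 0.0211) and in 2-g against 1-g (−0.32, adjusted p = 0.0276). The blocked call in set 2 was lost without any 1 of the 2-g arrays, control replicate 1 or control replicate 2, and that in 2-g against 1-g without any 1 of the 2-g arrays, 1-g replicate 1 or 1-g replicate 2.

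Ddit3, whose product CHOP drives cell death in prolonged ER stress, was lower in every magnet group than in control. It measured 10.52, 10.42 and 10.60 in μ-g, 10.67, 10.51 and 10.38 in 1-g, 10.78, 10.38 and 10.36 in 2-g and 10.98, 10.76 and 10.71 in control. The μ-g and 1-g arrays all lay below the control arrays, and of the 2-g arrays only replicate 1 lay among them. The log2 fold change was −0.30 in set 1, −0.31 in set 2 and −0.30 in set 3 (SE 0.12 each, adjusted p = 0.249, 0.186 and 0.371), and the 3 differences share the control arrays. With the block, Ddit3 fell in set 2 (adjusted p = 0.0347) and its differences in set 1 and set 3 did not pass (adjusted p = 0.0546 and 0.0911). The blocked call was lost without 2-g replicate 2, 2-g replicate 3 or any 1 of the control arrays, and without 2-g replicate 1 the unblocked value was −0.45 (adjusted p = 0.0429). Between the magnet groups Ddit3 differed by no more than 0.01, and the interval of μ-g minus 1-g ran from −0.26 to 0.24.

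Chac1, Asns and Trib3, which are targets of ATF4, had their lowest means in 2-g. Chac1, which encodes an enzyme that degrades glutathione, measured 11.64, 11.37 and 11.43 in μ-g, 11.71, 11.43 and 11.47 in 1-g, 11.49, 11.05 and 11.19 in 2-g and 11.87, 11.46 and 11.77 in control. Within every replicate number the 2-g array was the lowest and the control array the highest of the 4, although the groups overlapped. In set 2 it differed by −0.45 (log2, SE 0.13) at an adjusted p of 0.0848, and with the block Chac1 fell in set 2 (SE 0.06, adjusted p = 0.00142), rose in set 4 (0.23, adjusted p = 0.0255) and fell in 2-g against 1-g (−0.29, adjusted p = 0.0111). Its blocked difference in set 1 did not pass (−0.22, adjusted p = 0.0506). The call in set 2 held in the blocked fit without any 1 of the 12 arrays, and Chac1 also passed without a block when only genes above the median level were tested (adjusted p = 0.0460), without 2-g replicate 1 (−0.58, adjusted p = 0.0428) or without control replicate 2 (−0.57, adjusted p = 0.0405). The blocked call in set 4 was lost without any 1 of the μ-g arrays, 2-g replicate 2 or 2-g replicate 3, and that in 2-g against 1-g without 1-g replicate 2, 2-g replicate 2 or 2-g replicate 3.

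Asns, which encodes asparagine synthetase, measured 13.31, 13.32 and 13.20 in μ-g, 13.24, 13.39 and 13.16 in 1-g, 13.15, 13.05 and 12.94 in 2-g and 13.23, 13.30 and 13.23 in control. All 2-g arrays lay below all other arrays, though 2-g replicate 1 only just. It differed by −0.21 in set 2 (SE 0.07, adjusted p = 0.145), by 0.23 in set 4 (adjusted p = 0.109) and by −0.22 in 2-g against 1-g (adjusted p = 0.145). With the block it fell in set 2 (adjusted p = 0.0368), rose in set 4 (adjusted p = 0.0247) and fell in 2-g against 1-g (adjusted p = 0.0340). Of 12 blocked fits that each left out 1 array, Asns kept its call in 4 in set 2, in 7 in set 4 and in 6 in 2-g against 1-g, and without 2-g replicate 2 or 2-g replicate 3 it passed in none of the 3. Trib3, a pseudokinase induced by ATF4 and CHOP that restrains both, measured 10.52, 9.96 and 10.21 in μ-g, 10.56, 10.10 and 10.27 in 1-g, 10.58, 9.71 and 10.21 in 2-g and 10.63, 10.18 and 10.50 in control. Its groups overlapped throughout, and in set 2 it fell (−0.27) only with the block (adjusted p = 0.0478, against 0.593 without), a call that was lost without any 1 of the other 10 arrays but held without 1-g replicate 2 or 2-g replicate 1.

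The spread of these genes within groups went with the replicate number. Replicate 1 lay above the mean of its group in 4 of 4 groups for Trib3, Atf3, Chac1, Ddit3 and Ero1a, by 0.29, 0.24, 0.19, 0.15 and 0.19 on average, and replicate 2 lay below it in 4 of 4 groups for Trib3, Atf3, Chac1 and Ddit3. Asns and Xbp1 went the other way in replicate 2, which lay above the group mean in 4 of 4 groups. Over all genes, deviations from the group means correlated by 0.342 on average between arrays of the same number. Neither the labels nor the methods explain the number, and its part in the results was not tested beyond the fits with and without the block. Within groups, Chac1 and Trib3 went together most closely among the 45 pairs of the 10 genes (Pearson's r = 0.946 over 12 arrays, a description of arrays that share these numbers), followed by Atf3 and Ddit3 (r = 0.918).

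**Figure D2:**
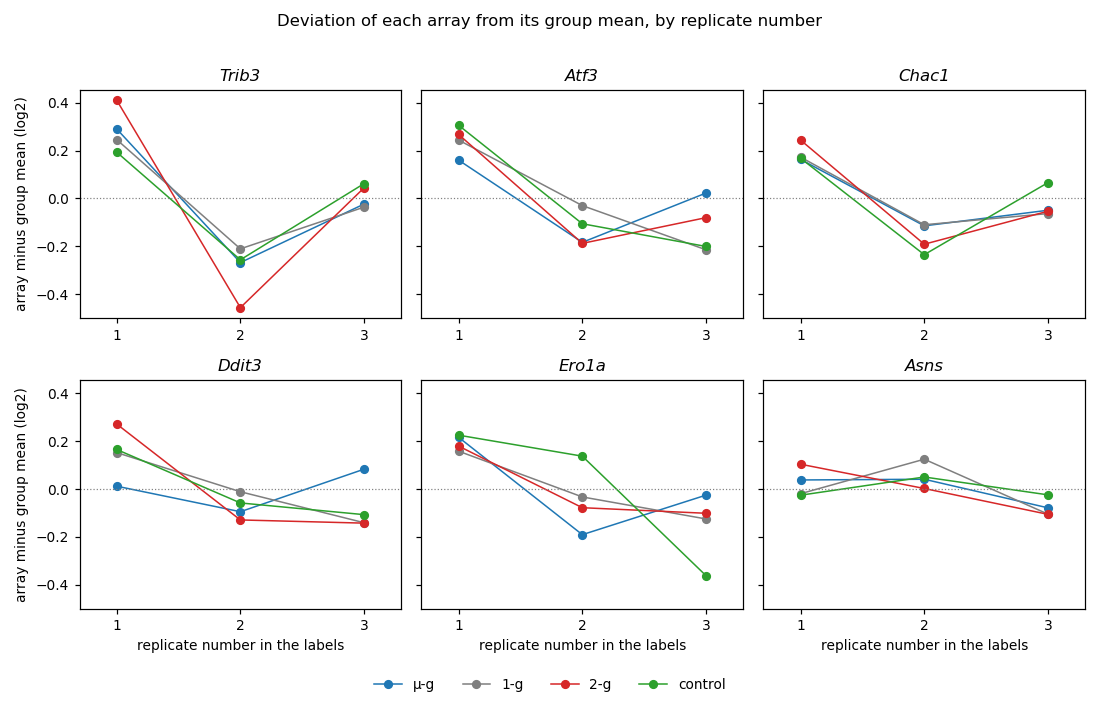
Level of each array minus the mean of its group (log2) for Trib3, Atf3, Chac1, Ddit3, Ero1a and Asns by replicate number, with 1 line for each of μ-g, 1-g, 2-g and control. Replicate 1 lies above 0 in all 4 groups for each of these genes but Asns, and replicate 2 of Trib3 lies at −0.21 or lower in all 4.

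Hspa5 and Xbp1, of the ER folding branch, passed in none of the 6 comparisons with or without the block. Hspa5 encodes BiP, the main chaperone of the ER lumen and a target of ATF6, and measured 13.06, 13.01 and 13.04 in μ-g, 12.96, 13.07 and 12.98 in 1-g, 13.03, 12.89 and 13.07 in 2-g and 13.002, 12.87 and 12.90 in control. Its largest difference was 0.11 in set 1 (95% interval −0.01 to 0.24, adjusted p = 0.408), where the μ-g arrays all lay above the control arrays by a small margin. Xbp1, whose messenger IRE1 splices into a form that encodes an active factor, measured 11.58, 11.80 and 11.58 in μ-g, 11.59, 11.78 and 11.70 in 1-g, 11.77, 11.82 and 11.81 in 2-g and 11.64, 11.69 and 11.64 in control. The 2-g arrays lay above the control arrays by 0.14 on average (SE 0.07, adjusted p = 0.310), and the cluster gives 1 value for the gene, not for its spliced form.

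Counted over the 10 genes, calls without the block were confined to set 4 and 2-g against 1-g among the 6 comparisons. In set 4, 0 rose, 2 fell and 8 did not pass, where 2.88% of all genes were called (17.2% at an unadjusted P), and with the block 2 rose and 2 fell (9.18% of all genes). In 2-g against 1-g, 2 rose, 0 fell and 8 did not pass (2.26% of all genes, 15.3% at an unadjusted P), and with the block 2 rose and 3 fell (7.57%). In set 2 limma called 0 of the 10 (3.11% of all genes), 6 at an unadjusted P under 0.05 (16.7% of all genes), and with the block 1 rose and 5 fell (9.38% of all genes). Set 1 and set 3 had 0 calls each (0.823% and 0.321% of all genes) and 3 genes each at an unadjusted P, the same 3 in both, Ddit3, Ero1a and Ddit4, all lower (14% and 10.8% of all genes in either direction, 4.1% and 3.03% lower). With the block set 1 and set 3 had 1 call each, that of Ero1a in both (4.7% and 1.77% of all genes, 1.56% and 0.737% lower). In μ-g against 1-g, 0 of the 10 were called or had an unadjusted P under 0.05 (0% of all genes called, 2.31% at an unadjusted P), and the largest difference was that of Trib3 (−0.08, 95% interval −0.54 to 0.37). At 1.5-fold with an unadjusted P under 0.05, the limits of the study's methods, Ero1a alone passed in set 3, set 4 and 2-g against 1-g (0.14%, 0.707% and 0.652% of all genes) and 0 of the 10 in set 1, set 2 and μ-g against 1-g (0.206%, 0.466% and 0%). The arrays of both groups did not overlap for 3 of the 10 genes in set 1, set 2, set 3, set 4 and 2-g against 1-g (17.2%, 21.2%, 15%, 21.1% and 19.5% of all genes) and for 0 in μ-g against 1-g (5.63%). Set 2, set 4 and 2-g against 1-g share the 2-g arrays, so their values are not independent of each other.

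**Figure D3:**
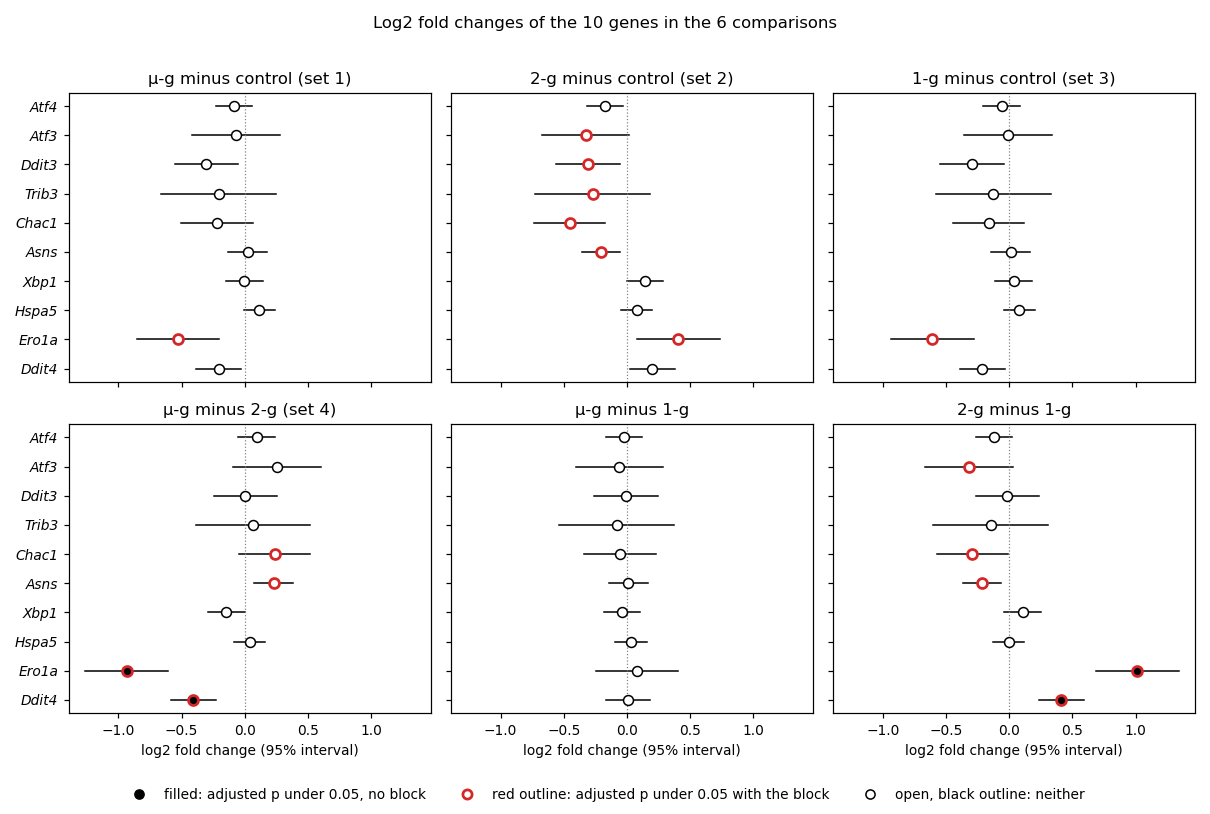
Log2 fold change with its 95% interval (x axis) of each of the 10 genes (y axis) in the 6 comparisons, the first group named minus the second. Filled points passed without a block (Ero1a and Ddit4 in set 4 and in 2-g against 1-g), and red outlines mark those that passed with the replicate number as a block, 6 of them in set 2.

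Other genes of amino acid synthesis and uptake under ATF4 had lower means in 2-g than in control, as Asns and Chac1 had. Of 15 measured, 14 had a lower mean in 2-g than in control, with a median log2 fold change of −0.21, where the median of all genes was −0.003. In set 2, 0 passed without a block, 11 were lower at an unadjusted P under 0.05 (8.1% of all genes), and with the block 9 fell and 1 rose (4.32% and 5.06% of all genes). Slc3a2, the heavy chain shared by several amino acid exchangers, was the 1 gene of the list called without a block, higher in set 4 (0.24, SE 0.06, adjusted p = 0.0452, where 1.38% of all genes rose), its levels being 13.30, 13.20 and 13.18 in μ-g and 13.08, 12.91 and 12.98 in 2-g. That call was lost in 12 of 19 alternatives, 10 of which left out 1 array (all but 2-g replicate 1 and control replicate 2), with adjusted p up to 0.187. With the block, 9 genes of the list rose and 1 fell in set 4 (5.28% and 3.9% of all genes), and 1 rose and 10 fell in 2-g against 1-g (3.21% and 4.36%). In set 1, set 3 and μ-g against 1-g limma called 0 genes of the list with or without the block, and 0 had an unadjusted P under 0.05 (14%, 10.8% and 2.31% of all genes).

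Slc7a11 and Slc1a4 were singled out after their values were seen. Slc7a11, the cystine carrier that feeds glutathione synthesis, measured 11.12, 9.98 and 10.75 in μ-g, 10.88, 10.16 and 10.48 in 1-g, 10.19, 9.56 and 10.07 in 2-g and 11.09, 10.09 and 10.67 in control. Replicate 2 was the lowest array in each group and the groups overlapped. In set 2 it fell only with the block (−0.68, adjusted p = 0.00220, against 0.289 without). Slc1a4, a carrier of neutral amino acids, went the other way, with 10.73, 10.51 and 10.55 in 2-g and 10.45, 10.31 and 10.42 in control, and rose in set 2 with the block (0.20, adjusted p = 0.0359).

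The aminoacyl-tRNA synthetases that ATF4 controls, which load amino acids onto tRNA, had lower means in 2-g as well. All 11 measured had a lower mean in 2-g than in control (median −0.20) and than in 1-g (median −0.21), and a higher mean in μ-g than in 2-g (median 0.27). Without a block limma called 0 of 11 in each of the 6 comparisons, with 7 lower in set 2, 8 higher in set 4, 6 lower in 2-g against 1-g and 0 in the others at an unadjusted P under 0.05 (16.7%, 17.2% and 15.3% of all genes in either direction in those 3). With the block 4 fell in set 2, 7 rose in set 4 and 7 fell in 2-g against 1-g (4.32%, 5.28% and 4.36% of all genes in those directions), and none passed in set 1, set 3 or μ-g against 1-g. The other genes known downstream of ATF4 and CHOP did not share a direction, with a median of −0.03 in set 2. There 0 of 14 were called, and 1 was higher and 1 lower at an unadjusted P under 0.05 (16.7% of all genes in either direction). Stc2, a secreted glycoprotein of the stanniocalcin family, measured 9.54, 9.30 and 9.48 in μ-g, 9.65, 9.38 and 9.37 in 1-g, 10.31, 10.09 and 10.03 in 2-g and 10.09, 9.98 and 9.87 in control. It fell in set 1 (−0.54, SE 0.10, adjusted p = 0.0341) and set 4 (−0.70, adjusted p = 0.00314) and rose in 2-g against 1-g (0.68, adjusted p = 0.00455), and the calls in set 4 and in 2-g against 1-g held in all 19 alternatives while that in set 1 was lost in 8, among them the loss of any 1 of the 6 arrays compared or 2-g replicate 3. Cebpd, a C/EBP factor, fell in set 4 (−0.31, SE 0.06, adjusted p = 0.0223), a call lost in 5 of 19 alternatives (adjusted p up to 0.0936). These were the fits without μ-g replicate 2, μ-g replicate 3, 2-g replicate 2 or 2-g replicate 3 and that of only the 6 arrays compared. Atf5 and Sesn2, close relatives in the response, differed by −0.01 and −0.16 in set 2 (adjusted p = 0.988 and 0.809).

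The upstream sensors, eIF2alpha kinases and phosphatase subunits had 0 calls by limma without the block among 9 measured in each of the 6 comparisons. Their means in 2-g were below those in 1-g for 9 of 9 (median −0.19) and below those in μ-g for 9 of 9 (median difference 0.14 in set 4). Against control 7 of 9 had a higher mean in μ-g (median 0.09), 3 in 2-g (median −0.02) and 7 in 1-g (median 0.10). With the block 3 fell in set 2 (4.32% of all genes). These were Ern1, which encodes IRE1, Atf6 and Ppp1r15a, which encodes the stress-induced phosphatase subunit GADD34, at −0.26, −0.29 and −0.52 (adjusted p = 0.00957, 0.00906 and 0.00744, against 0.304, 0.0825 and 0.0847 without the block). Ern1, Atf6 and Eif2ak1, which encodes the kinase HRI, rose in set 4 with the block (0.36, 0.24 and 0.21, adjusted p = 0.00194, 0.0220 and 0.0315, 5.28% of all genes). Ern1 and Eif2ak1 fell with it in 2-g against 1-g (−0.32 and −0.24, adjusted p = 0.00390 and 0.0224, 4.36% of all genes). In set 1, where the numbers were not taken to pair the samples by the rule used, 1 rose with it. This was Eif2ak2, which encodes the kinase PKR (0.38, adjusted p = 0.0451, against 0.0786 without the block, 3.14% of all genes). Eif2ak3, which encodes the kinase PERK, differed by 0.09 in set 2 (adjusted p = 0.559). At an unadjusted P under 0.05 and without the block, 4 were higher in set 1, 1 higher and 2 lower in set 2, 3 higher in set 3, 3 higher in set 4, 4 lower in 2-g against 1-g and 0 in μ-g against 1-g. The shares of all genes with such a P in either direction were 14%, 16.7%, 10.8%, 17.2%, 15.3% and 2.31% in that order.

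Of the ER chaperones and folding enzymes, 15 of 17 had a higher mean in μ-g than in control, 16 in 2-g and 16 in 1-g, with medians of 0.15, 0.14 and 0.12, where the medians of all genes were 0.02, −0.003 and 0.02. These 3 counts share the control arrays. Between the magnet groups the medians of the list were −0.02 in set 4, 0.03 in μ-g against 1-g and 0.02 in 2-g against 1-g. Without the block Hsp90b1, the ER form of HSP90, rose in set 2 (0.25, SE 0.06, adjusted p = 0.0479), and P4hb, a protein disulfide isomerase and substrate of Ero1a, fell in set 4 (−0.26, adjusted p = 0.0429) and rose in 2-g against 1-g (0.29, adjusted p = 0.0301). No other gene of the list passed without the block, and the shares of all genes called in these directions were 1.68%, 1.49% and 1.26%. At an unadjusted P under 0.05, 7 were higher in set 1, 6 in set 2 and 4 in set 3 (14%, 16.7% and 10.8% of all genes in either direction). Such a P was reached by 1 lower in set 4 and 1 higher in 2-g against 1-g (17.2% and 15.3%). With the block 3 rose in set 1 (3.14% of all genes), 3 rose in set 2 (5.06%), 1 rose in set 3 (1.77% in either direction), 1 fell in set 4 (3.9%) and 1 rose in 2-g against 1-g (3.21%). The call of Hsp90b1 was lost in 12 of 19 alternatives, among them arrays centred on their medians, and those of P4hb in 10 and 5, with adjusted p up to 0.180, 0.164 and 0.120. Leaving out any 1 of the 2-g or control arrays ended the call of Hsp90b1. Ero1b, the relative of Ero1a, had 7.76, 7.82 and 8.07 in 2-g and 7.55, 7.62 and 7.84 in control (0.21, adjusted p = 0.323) and differed by 0.02 in 2-g against 1-g (adjusted p = 0.968), the comparison in which Ero1a rose. Of 12 genes of ER-associated degradation limma called 0 in each of the 6 comparisons without a block, and 0 to 2 had an unadjusted P under 0.05 (2.31% to 17.2% of all genes).

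Beside Ddit4, the list of 12 genes that restrain mTORC1 held calls against control without the block, with 3 rising in set 1, 2 rising and 1 falling in set 2 and 2 rising in set 3 (0.436%, 1.68%, 1.43% and 0.176% of all genes in those directions). Sesn3, a sestrin, measured 8.72, 8.80 and 8.75 in μ-g, 8.52, 8.52 and 8.57 in 1-g, 8.65, 8.54 and 8.75 in 2-g and 8.10, 8.20 and 8.11 in control, and it rose in set 1, set 2 and set 3 (0.61, 0.51 and 0.40, adjusted p = 0.00132, 0.00216 and 0.0272). Castor2, the partner of the arginine sensor CASTOR1, rose in the same sets (0.40, 0.51 and 0.43, adjusted p = 0.0300, 0.00344 and 0.0353). Both calls in set 2 held in 19 alternatives, while the calls of Castor2 in set 1 and set 3 were lost in 7 and 11, those of Sesn3 in 1 and 5. Averaging the clusters of each gene ended the calls of Castor2 in set 1 and set 3 but not that in set 2. The 3 sets share the control arrays. Tsc1 rose in set 1 (0.26, adjusted p = 0.0465) and Nprl3 fell in set 2 (−0.21, adjusted p = 0.0476), in calls lost in 14 and 13 of 19 alternatives. Ddit4l, the relative of Ddit4, stood at 8.76, 8.35 and 8.31 in μ-g, 8.17, 8.44 and 8.58 in 2-g and 7.94, 8.13 and 8.14 in control, above control by 0.41 in set 1 and 0.33 in set 2 (adjusted p = 0.157 and 0.193). In set 4, where Ddit4 fell, limma called 0 of the 12 without the block, and 3 were higher at an unadjusted P under 0.05 (17.2% of all genes in either direction). Against control such a P was reached by 7 higher in set 1, 5 higher and 1 lower in set 2 and 7 higher and 1 lower in set 3 (14%, 16.7% and 10.8%). With the block 5 rose in set 1 (3.14% of all genes), 4 rose and 1 fell in set 2 (5.06% and 4.32%). In set 3 2 rose with it (1.77% in either direction) and in set 4 1 rose (5.28%).

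**Figure D4:**
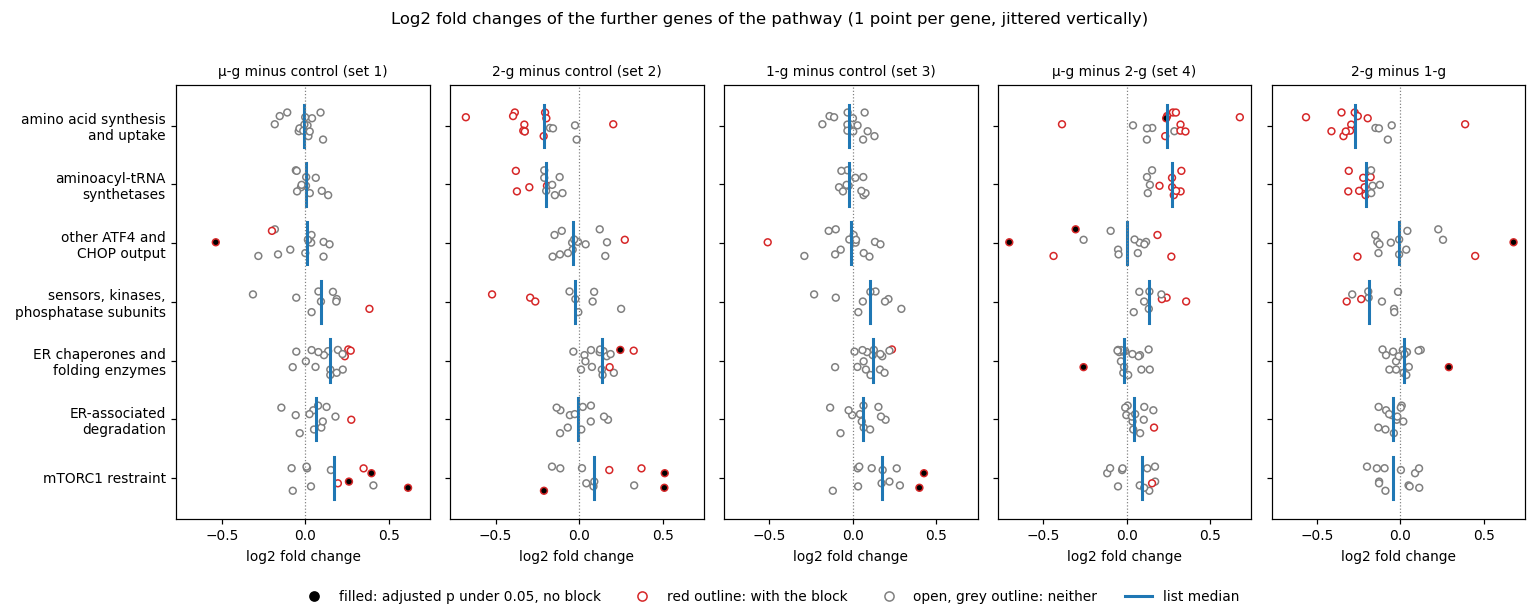
Log2 fold change (x axis) of each gene in 7 lists of the pathway (y axis), in set 1, set 2, set 3, set 4 and 2-g against 1-g, the first group named minus the second. Blue lines are list medians, filled points passed without a block and red outlines with it. The amino acid and aminoacyl-tRNA synthetase lists have medians below 0 in set 2 and in 2-g against 1-g (−0.21 and −0.20, −0.27 and −0.21) and above 0 in set 4 (0.24 and 0.27), while in set 1 and set 3 they lie around 0.

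Genes of the response to low oxygen also stood highest in 2-g, as Ero1a and Ddit4 did. Of 22 measured hypoxia response genes, without the block 19 fell and 0 rose in set 4 (1.49% of all genes lower, median −1.05), 18 rose and 0 fell in 2-g against 1-g (1.26% higher, median 1.10), and 15 rose in set 2 (1.68% higher). In set 1, 7 fell, and in set 3, 5 fell (0.386% and 0.145% of all genes lower). The list was chosen with earlier results of these data known. Several of its genes, among them Pdk1, Ldha, P4ha1 and Egln1, are listed by the study as changed on these arrays. The counts therefore describe the list and do not test it. Ak4, an adenylate kinase of mitochondria, measured 7.96, 8.39 and 7.55 in μ-g, 8.62, 8.61 and 8.02 in 1-g, 11.42, 11.40 and 11.25 in 2-g and 9.53, 10.47 and 9.34 in control, and fell by 3.39 (log2, SE 0.28, adjusted p = 8.4e-05) in set 4. Car9, Bnip3 and Pdk1 fell there by 3.14, 2.69 and 2.51 on the log2 scale. Control replicate 3, low for Ero1a, was also the lowest control array for all 4 of these genes, at 9.34, 7.15, 10.95 and 8.27, and was the highest control array for Ddit4. This did not hold over the whole list. For Adm, Egln3 and Kdm3a control replicate 1 was the lowest (9.10, 6.38 and 9.64, against 9.38, 6.87 and 9.69 in replicate 3). Whether oxygen differed between positions in the bore was not measured in these files, and its part in the results was not tested.

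The genes most like Ero1a over the 12 arrays, by Pearson's r among all genes, were Stc2 (r = 0.963), Gbe1 (r = 0.959), Mthfd1l (r = 0.957) and Pdk3 (r = 0.957). Those most like Ddit4 were Grcc10 (r = 0.940), Eno2 (r = 0.925), Selenow (r = 0.907) and AI837181 (r = 0.902). Ero1a and Ddit4 correlated by 0.768 over the arrays and by −0.26 over the deviations within groups. These values describe 12 arrays in 4 groups that share replicate numbers.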

How the data were processed

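RNA of MLO-Y4 cells in 4 groups was hybridised to 3 arrays each. The log2 values deposited by the authors cover 28856 transcript clusters after RMA of the probe intensities, per the submitters' processing notes. No source used here names the genome build behind the clusters. Clusters were named through the platform annotation and current mouse symbols. For each of 19938 genes with 1 symbol the brightest cluster (mean of 12 arrays) was kept. Group means were fitted over all clusters with limma 3.58.1 in R 4.3.3 (lmFit, eBayes, 8 residual and 3.90 prior degrees of freedom), and p-values were adjusted after Benjamini and Hochberg over the genes. The code was tested on simulated data. Rose and fell mean an adjusted p under 0.05, and intervals are 95%. The number of arrays limits the precision.

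Replicates are numbered 1 to 3 in each group. In every comparison but set 1 each same-numbered pair had deviations that correlated above 0.1, so there the number was taken to pair the samples. In set 1 replicates 1 and 2 gave 0.428 and 0.485 but replicate 3 gave 0.0179, so by this rule set 1 was not taken as paired. The pairing comes from these values only. The members and lists were chosen with earlier results of these data known. All 10 genes are given on every array. Of each further list the genes called in any comparison are named (the 4 with the largest fold change where over 5 were called) with close relatives of a member, and 4 genes most like Ero1a and Ddit4. Markers were used only to check the cells. Promoters are from RefSeq, GRCm38.p6. Other alternatives were fits of only 6 arrays, a filter on the median level, centred or quantile normalized arrays and a trended prior. Further ones were the mean of all clusters of a gene, leaving out each array, and the methods' limits of 1.5-fold with P under 0.05.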

Additional observations from a re-analysis of the deposited data

How the results depend on the processing

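The signs and calls of Ero1a in set 4 and in 2-g against 1-g held in all 19 alternatives run. The replicate block moved the number of the 10 genes called to 1 in set 1, 6 in set 2, 1 in set 3, 4 in set 4, 5 in 2-g against 1-g and 5 by the F test, against 0, 0, 0, 2, 2 and 2 without it (4.7% of all genes were called with it in set 1 and 11.7% by the F test), and left μ-g against 1-g at 0. In set 1, where the numbers were not taken to pair the samples by the rule used, the call was that of Ero1a (−0.53, adjusted p = 0.0166), and the F test added Chac1, Asns and Atf3 (adjusted p = 0.00394, 0.0404 and 0.0382). With only genes above the median level, set 2 had 1 call, that of Chac1. At the methods' limits of 1.5-fold with an unadjusted P under 0.05, set 3, set 4 and 2-g against 1-g had 1 call each. Leaving out 1 array gave 0 to 1 calls in set 1, 0 to 3 in set 2, 0 to 1 in set 3, 1 to 2 in set 4, 1 to 2 in 2-g against 1-g and 1 to 2 by the F test. With the block as well, chosen after seeing the data, leaving out 1 array gave 0 to 2, 1 to 6, 0 to 2, 1 to 5 and 1 to 5 calls in set 1, set 2, set 3, set 4 and 2-g against 1-g, where set 2 had only Chac1 without 2-g replicate 2, 2-g replicate 3 or control replicate 1. Of 1140 values of the 10 genes under alternatives, 44 changed sign. None of these was in a comparison where that gene was called without the block. All were where the log2 fold change was at most 0.15 in size. The cause of these shifts was not tested.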
